A study of Rattus norvegicus with 32 samples.

Results

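The comparison described here is that of iron-deficient with iron-sufficient rat pups when both had received insulin through the nose. It compares 15 of the 32 hippocampal RNA sequencing libraries of the study, chosen by their labels alone. These are 8 libraries of iron-deficient, insulin-treated pups (ID insulin) and 7 of iron-sufficient, insulin-treated pups (IS insulin). All genes were tested from the raw read counts, in a fit to all 32 libraries that also used the controls to estimate each gene's spread. The remaining 17 libraries, 8 of IS control and 9 of ID control pups, gave the same diet difference without insulin and share no library with the main comparison. Dams of the ID groups were fed a purified diet with 3 to 6 ppm iron from gestational day 3 to postnatal day 7. No iron content is labelled for the IS groups. Insulin was given 2 times a day from postnatal day 8 to postnatal day 21. All pups are labelled wild type, and neither strain nor sex is given. RNA came from 1 hippocampus per pup, and since litters are not named, the tests see no more than the variation among these animals. Collection is labelled as postnatal day 7 or 21 for the study as a whole. The insulin-treated pups must have been collected at the later age, whereas the age of the control pups is not settled by the labels. The first number of the sample titles is 72 for every IS insulin and 73 for every ID insulin library, so whatever that number stands for cannot be told apart from diet.

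Iron enters brain cells mainly as transferrin bound to the transferrin receptor, which is taken up by endocytosis. When cellular iron is low, iron regulatory proteins bind the transferrin receptor mRNA and protect it from decay, and they hold back translation of ferritin mRNA, so the receptor transcript is a common readout of iron status. The hippocampus matures in the weeks around birth in rats, and early iron deficiency is known to affect its neuronal differentiation, energy metabolism and myelination. Insulin and insulin-like growth factor act there through receptor tyrosine kinases that signal to AKT and mTOR.

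Total counts ranged from 21021213 to 28062630 in IS insulin and from 20329153 to 26782287 in ID insulin. Transcripts of hippocampal neurons were abundant in all of them. Camk2a, the kinase of excitatory synapses, had 1108 ± 78.4 CPM (reads of a gene relative to the TMM-scaled library total; SD, n = 7) in the 7 IS insulin libraries. In the 8 ID insulin libraries it had 1093 ± 131 CPM (log2 fold change -0.02, edgeR adjusted p = 0.904). Values after ± are SDs over these numbers of libraries unless called SE. Prox1 of dentate granule cells had 96.7 ± 19.8 CPM and 101 ± 21.9 CPM. Of 13 tested genes on a list of hippocampal neurons, 3 had a positive and 10 a negative log2 fold change, with a median of -0.11. Of these 13, Nrgn alone passed the test, and it was lower (edgeR adjusted p = 0.0180). The mean log2 CPM of that list was 6.58 to 6.92 in IS insulin and 6.37 to 6.96 in ID insulin. ID insulin replicate 3 stood apart, with a chi-square per gene of 46.1 to 102 against the other libraries of its group, which differed among themselves by at most 31.0. Markers of tissue next to the hippocampus varied widely. Ttr of the choroid plexus ran from 17.8 to 4010 CPM for IS insulin, against 277 to 5561 in ID insulin. Prkcd, strong in thalamus, reached 172 CPM in ID insulin replicate 5, and Pmch of the lateral hypothalamus reached 117.5 CPM in ID insulin replicate 8. Mitochondrially encoded transcripts took 8.60 to 11.4% of counts in IS insulin and 6.84 to 11.99% in ID insulin. Y-linked transcripts exceeded 10 CPM in 3 of 7 and 4 of 8 libraries. In such bulk samples, fewer cells of a type and less RNA per cell cannot be told apart.

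Of 15439 genes tested, 378 (2.45%) differed between ID insulin and IS insulin at an adjusted p under 0.05 by edgeR's quasi-likelihood test, the rule for a called gene throughout. Of these, 204 were higher (1.32% of genes tested) and 174 lower (1.13%) in ID insulin. The 2.45% is the share to set beside each count of called list members below. No list was tested as a set. Differences were mostly small. The median absolute log2 fold change of called genes was 0.39, and 47 genes (0.304%) changed at least 2-fold, 28 of them higher (0.181%) and 19 lower (0.123%). The median over all genes was -0.00057. The balance of higher and lower calls moved with the setting: it was 253 and 141 with upper-quartile scaling, 172 and 219 without ID insulin replicates 3 and 5, and 68 and 153 without replicates 3, 5 and 8. For 68 genes (0.440%) the values of the groups did not overlap, 34 (0.22%) in each direction, and 46 of these were called. The count of called genes rested on single libraries: it was 605 without ID insulin replicate 1, 751 without replicate 3, 176 without replicate 5, 248 without replicate 6 and 183 without replicate 8. It was 169, 202, 209 and 228 without IS insulin replicates 2, 3, 4 and 5 in turn. The remaining fits gave 331, 277 and 425 without ID insulin replicates 2, 4 and 7. They gave 337, 331 and 271 without IS insulin replicates 1, 6 and 7. With the mean levels of 4 marker lists (blood, choroid plexus, thalamus and meninges) as covariates it was 37, of which 15 were higher and 22 lower. When the 15 compared libraries were fitted alone, without the controls, it was 146, and 128 of these were among the 378.

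Tfrc, the transferrin receptor, had the lowest adjusted p of all genes. Its level was 117 CPM at the lowest, 120.4 at the median and 165 at the highest in IS insulin, and 173, 205 and 225 in ID insulin. Every ID insulin library lay above every IS insulin library. Tfrc was 1.60-fold higher (log2 fold change 0.68 ± 0.07, SE; edgeR adjusted p = 1.79e-06). The rise was called in each of the 15 fits that left out a library and in every alternative fit. Tfrc was the only 1 of 16 tested genes for cellular iron uptake and sensing to be called, and the median log2 fold change of that list was 0.03. Ireb2, an iron regulatory protein (0.21, adjusted p = 0.0761), and Slc11a2, the divalent metal transporter (0.14, adjusted p = 0.0771), missed the threshold.

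Iron storage, export and heme breakdown genes gave 1 call among 15 tested (6.67%, against 2.45% of all genes tested), with a median of -0.04. Prnp, the prion protein, was at 926, 966 and 1013 CPM (lowest, median, highest) in IS insulin and at 795, 866 and 918 in ID insulin. The groups did not overlap, and Prnp fell by 0.17 on the log2 scale (SE 0.04, edgeR adjusted p = 0.0160). Fth1, the ferritin heavy chain, had 836 ± 46.7 and 806 ± 106 CPM (adjusted p = 0.715). Slc40a1, the iron exporter ferroportin, had 3.05 ± 0.448 and 3.42 ± 0.635 CPM (adjusted p = 0.539). Among 34 genes of mitochondrial iron and iron-sulfur assembly, 1 was called (2.94%, near the 2.45% of all genes tested). Ciao1, of the cytosolic iron-sulfur assembly machinery, rose from 32.3 ± 2.42 to 38.9 ± 4.73 CPM (log2 fold change 0.27, edgeR adjusted p = 0.0464). That call was lost in 10 of 15 fits that left out a library. None of 32 iron-dependent dioxygenases was called by edgeR, whereas 9 had an unadjusted p under 0.05, each of them higher, against 20.1% of all genes in either direction. DESeq2 called 4 of the 32 and limma voom 3, where they called 723 and 566 of all 15439 genes tested.

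Scara3, a scavenger receptor linked to oxidative stress, showed the reverse of Tfrc. It lay at 64.9, 74.3 and 83.4 CPM in the IS insulin group and at 36.4, 47.8 and 53.4 CPM in ID insulin, with no overlap. Scara3 fell by 0.68 on the log2 scale (SE 0.08, edgeR adjusted p = 9.88e-06). Cpq, a secreted carboxypeptidase, went from 26.5, 29.7 and 32.1 CPM to 15.8, 20.4 and 24.8 CPM. Cpq fell by 0.51 (adjusted p = 0.00027), again without overlap. Scg3, a granin of neuronal secretory granules, fell by 0.30 (adjusted p = 5.0e-04), from 360 ± 25.3 to 292 ± 21.5 CPM. Slc3a2, the shared heavy chain of several amino acid transporters, was at 154 to 174 CPM over IS insulin and at 133 to 149 CPM in ID insulin. It fell by 0.24 (adjusted p = 0.00127). Thrsp, a regulator of lipid synthesis, fell by 0.70 (adjusted p = 0.00110), from 19.1 ± 1.28 to 11.8 ± 2.40 CPM. All these lower genes but Scg3 had groups that did not overlap.

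**Figure D1:**
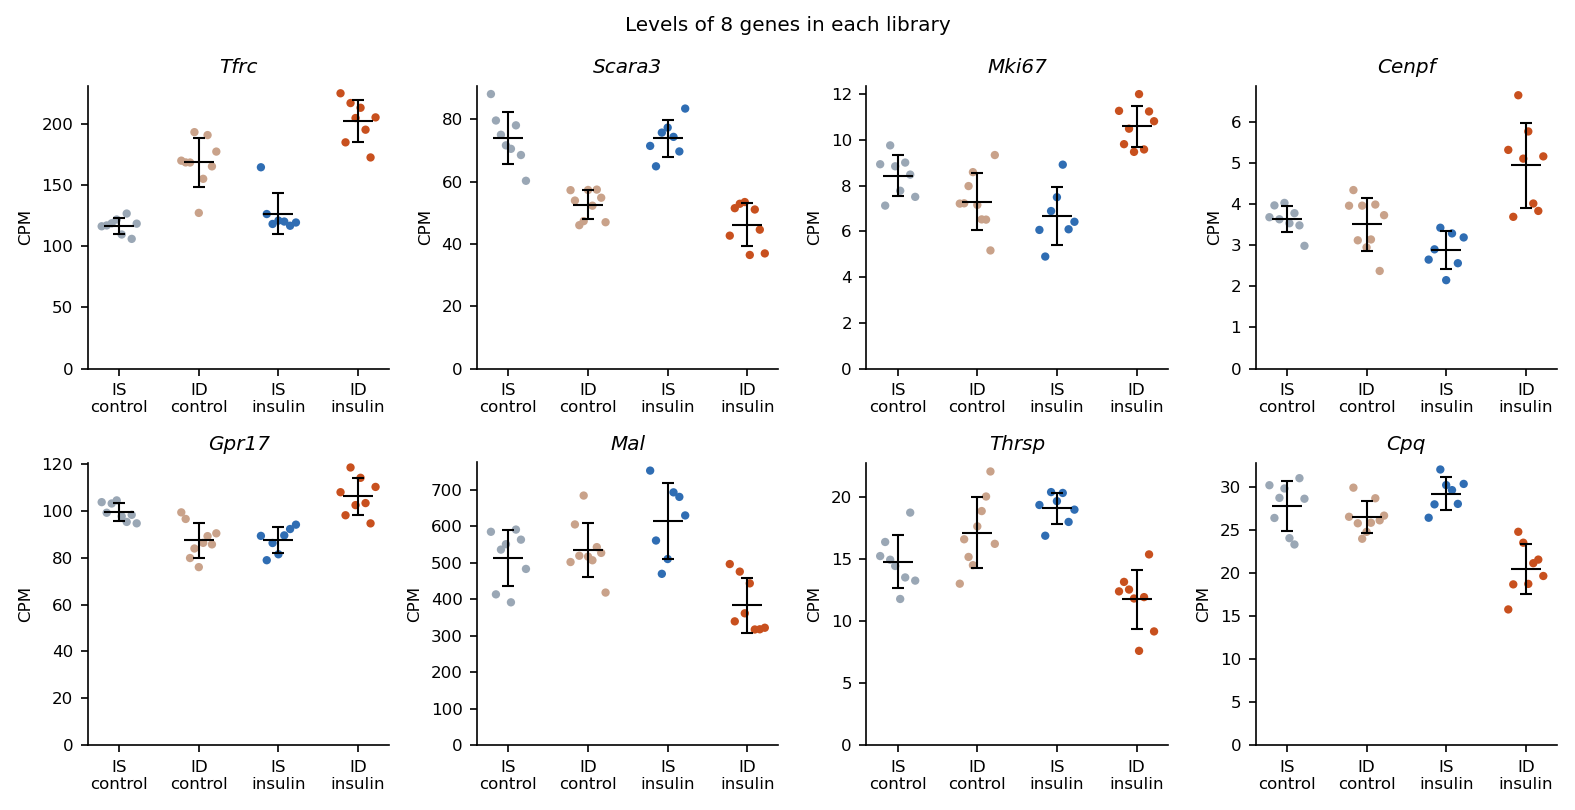
Level of 8 genes in each library in CPM, by group, with the mean and SD as bars. Tfrc is higher and Scara3 lower in both ID groups, while for Mki67, Cenpf, Gpr17, Mal, Thrsp and Cpq the 2 control groups overlap each other.

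Insulin and insulin-like growth factor genes gave 1 call among 15 tested, with a median log2 fold change of 0.14. Igf1, the growth factor itself, was at 4.30, 5.27 and 6.30 CPM for IS insulin, against 6.13, 7.09 and 10.3 CPM in ID insulin. The ranges touched, and Igf1 was higher by 0.48 (SE 0.12, edgeR adjusted p = 0.0287), a call lost in 6 of the 15 fits that left out a library. The insulin receptor Insr had 43.9 ± 4.09 and 48.4 ± 3.89 CPM (0.14, adjusted p = 0.205). Igf1r, the receptor of insulin-like growth factor, had 15.1 ± 2.49 and 15.6 ± 2.61 CPM (adjusted p = 0.833). Of 35 genes of the PI3K, AKT, FoxO and mTOR pathway, 1 was higher and 1 lower. Rictor, the defining subunit of mTOR complex 2, rose from 34.8 ± 4.32 to 43.0 ± 2.17 CPM (0.31, adjusted p = 0.0419). Ddit4l, an inhibitor of mTOR signalling, fell by 0.54 (adjusted p = 0.0484). The call was lost in 11 of the 15 fits without a library for Rictor and in 10 for Ddit4l.

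Of 34 tested genes of the cell cycle list 3 were called, all higher in ID insulin. The list median was 0.24, and 31 of its genes had a positive log2 fold change, against 49.8% of all genes tested. Mki67, the proliferation antigen Ki-67, lay at 4.90, 6.42 and 8.91 CPM in the IS insulin group and at 9.47, 10.6 and 12 CPM in ID insulin. Its groups did not overlap, and it was 1.59-fold higher (0.67 ± 0.10, edgeR adjusted p = 9.1e-04), a call kept in each alternative fit. Cenpf, a kinetochore protein, lay at 2.15, 2.89 and 3.42 CPM against 3.68, 5.13 and 6.64 CPM. It rose by 0.78 (SE 0.13, adjusted p = 0.00139), also without overlap. Top2a, the topoisomerase of replicating cells, rose from 7.11 ± 1.22 to 9.89 ± 1.52 CPM (0.47, adjusted p = 0.0368), with overlapping groups and a call lost in 7 of the 15 fits without a library. Aurkb, a mitotic kinase singled out after its values were seen, did not overlap between groups either (2.46 ± 0.39 and 3.98 ± 1.02 CPM) but missed the threshold (0.68, adjusted p = 0.0561).

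Promoters of many genes of the late cell cycle carry CCAAT boxes and a cell cycle homology region, TTTGAA. For the 3 called genes, the 250 bases before the start of transcription are printed from RefSeq (GRCr8) to show where these letters stand, with capitals for CCAAT and TTTGAA on either strand (ATTGG and TTCAAA when read from the other strand). Mki67 is at chr1:199952594-199952843, Cenpf at chr13:103760887-103761136 and Top2a at chr10:84473094-84473343, all on the minus strand and 5′ to 3′ as transcribed.
Mki67: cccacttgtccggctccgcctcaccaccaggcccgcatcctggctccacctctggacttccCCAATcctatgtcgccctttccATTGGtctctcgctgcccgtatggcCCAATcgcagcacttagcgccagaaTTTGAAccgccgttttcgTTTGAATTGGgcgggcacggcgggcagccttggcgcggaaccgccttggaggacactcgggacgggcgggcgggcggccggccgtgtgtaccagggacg
Cenpf: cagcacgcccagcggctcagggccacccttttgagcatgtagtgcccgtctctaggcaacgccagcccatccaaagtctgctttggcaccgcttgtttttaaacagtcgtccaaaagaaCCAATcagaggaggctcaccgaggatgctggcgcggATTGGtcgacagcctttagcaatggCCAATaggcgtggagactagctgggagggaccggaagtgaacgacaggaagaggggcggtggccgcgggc
Top2a: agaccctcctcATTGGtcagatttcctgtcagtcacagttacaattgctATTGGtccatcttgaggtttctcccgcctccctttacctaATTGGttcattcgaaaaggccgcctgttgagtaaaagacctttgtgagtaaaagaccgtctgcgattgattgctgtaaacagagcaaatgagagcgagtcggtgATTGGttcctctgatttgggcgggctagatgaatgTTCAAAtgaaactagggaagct
Mki67 held 4 CCAAT and 2 TTTGAA, and the second TTTGAA shares a base with a CCAAT on the other strand. Top2a held 4 CCAAT and 1 TTTGAA. Cenpf held 3 CCAAT, and its TTTGAA lies past the start, outside the printed bases. Counting the 300 bases from 250 before to 50 after the start, 10 of the 26 list genes with a promoter in the table held both motifs, 19 held CCAAT and 12 held TTTGAA. Among all 33469 promoters of that length 7.41% held both, 37.5% held CCAAT and 18.3% held TTTGAA. The list was counted by gene, with a gene included if any of its promoters held the motif. The shares of all promoters were counted by promoter, so the 2 measures are unlike and were not compared. These matches describe letters in the sequence and no binding was measured.

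Oligodendrocyte precursor genes gave 2 calls among 14 tested, both higher, with a median of 0.10. Gpr17, a receptor of precursors about to differentiate, lay at 79.0, 89.4 and 94.2 CPM over IS insulin and at 94.8, 106 and 119 CPM in ID insulin. The groups stood just apart, and Gpr17 rose by 0.28 (SE 0.05, edgeR adjusted p = 0.00326). Tnr, the matrix protein tenascin R, was 164 ± 20.2 and 209 ± 11.9 CPM, without overlap (0.35, adjusted p = 0.0225). Its call was lost without IS insulin replicate 2 (adjusted p = 0.0588). Sox6, a precursor transcription factor outside the naming rule, did not overlap either (10.2 ± 1.92 and 13.7 ± 1.26 CPM) but was not called (adjusted p = 0.0786). Pdgfra, the growth factor receptor of precursors, had 154 ± 15.5 and 168 ± 10.7 CPM (adjusted p = 0.216).

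Of 30 genes of myelin and mature oligodendrocytes 2 were called, both lower, and the list median was 0.00. Mal, a proteolipid of compact myelin, lay at 469.8, 630.0 and 753 CPM for IS insulin, against 317, 350.4 and 497 CPM in ID insulin. It fell by 0.68 (SE 0.11, edgeR adjusted p = 0.00166), with 6 of 8 ID insulin libraries below all of IS insulin. Cryab, a small heat shock chaperone of glia, fell by 0.49 (adjusted p = 0.00139) from 22.3 ± 1.42 to 15.9 ± 2.23 CPM, without overlap. Mbp, myelin basic protein, did not pass the test, with 8648 ± 802 and 8814 ± 2191 CPM (0.03, adjusted p = 0.914).

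Among 21 immature neuron genes 1 was called (4.76%, against 2.45% of all genes tested), with a median of 0.11. Dcx, the microtubule protein of migrating neurons, lay at 78.2, 90.1 and 99.0 CPM in the IS insulin group and at 99.7, 110.3 and 121 CPM in ID insulin. The groups were barely separate, and Dcx rose by 0.29 (SE 0.06, edgeR adjusted p = 0.0157). Dsp, desmoplakin, the called gene among 15 of dentate granule cells, rose from 2.84 ± 0.825 to 5.18 ± 0.741 CPM (0.87, adjusted p = 0.0245), a call lost in 3 of the 15 fits without a library. None of 14 pyramidal cell genes was called by edgeR, and 2 had an unadjusted p under 0.05, both lower. DESeq2 called 1 of the 14 and limma voom 0. Receptors and postsynaptic proteins gave 2 higher and 1 lower of 46. Grin2d, an NMDA receptor subunit, rose by 0.43 (adjusted p = 0.00583), from 10.9 ± 1.42 to 14.7 ± 2.04 CPM. Grm5, a metabotropic glutamate receptor, rose by 0.26 (adjusted p = 0.0490), a call lost in 12 of the 15 fits. Nrgn, the calmodulin-binding neurogranin, fell by 0.34 (adjusted p = 0.0180), from 1227 ± 110 to 967 ± 167 CPM. Of 23 interneuron genes 1 was called higher and 1 lower, with a median of 0.11 and 16 positive log2 fold changes. Nxph1, a neurexophilin, rose by 0.18 (adjusted p = 0.0272), a call lost in 5 of the 15 fits. Lamp5, a marker of one class of interneurons that is also on the neocortex list, fell by 0.65 (adjusted p = 0.0317), a call lost in 7 of them. Of 12 neurotrophin genes 1 was called (8.33%, against 2.45% of all genes tested). Ngfr, the p75 receptor, rose by 0.76 (adjusted p = 0.0484), a call lost in 9 of those fits. Bdnf, a growth factor of synapses, had 35.9 ± 2.80 and 34.9 ± 4.72 CPM (adjusted p = 0.811).

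Astrocyte genes gave 3 calls among 24 tested, all lower, with a median of -0.12. Aldoc, the glycolytic aldolase of astrocytes, lay at 725, 792 and 856 CPM over IS insulin and at 596, 645 and 731 CPM in ID insulin. Of the 8 ID insulin libraries 7 lay below all of IS insulin, and Aldoc fell by 0.28 (SE 0.05, edgeR adjusted p = 0.00691). Ntsr2, a neurotensin receptor, fell by 0.36 (adjusted p = 0.0173). Gjb6, the gap junction protein connexin 30, fell by 0.46 (adjusted p = 0.0218), a call lost without IS insulin replicate 4 (adjusted p = 0.0513). Among 20 microglial genes 1 was called (5%, against 2.45% of all genes tested): Ctss, the lysosomal protease cathepsin S. It fell by 0.40 (adjusted p = 0.00448), from 132 ± 14.6 to 99.9 ± 14.9 CPM. The hypoxia and glycolysis list gave 3 lower and 0 higher of 36, with a median of -0.04: Aldoc, Mxi1, a repressor that opposes MYC (-0.24, adjusted p = 0.00425), and Ldhb, a lactate dehydrogenase subunit (-0.15, adjusted p = 0.0469). The Ldhb call was lost in 10 of the 15 fits without a library. The glucose transporter Slc2a1 had 121 ± 10.6 and 107 ± 12.3 CPM (adjusted p = 0.233).

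Of 19 tested genes of the circadian clock and its output 3 were called, all lower in ID insulin, with a median of -0.09. Dbp, a transcription factor under direct clock control, fell by 0.30 (SE 0.06, edgeR adjusted p = 0.00839), from 60.7 ± 5.79 to 49.3 ± 5.49 CPM. Nr1d1, the repressor REV-ERB alpha, fell by 0.27 (adjusted p = 0.0430). Per1, which also responds to activity and to glucocorticoids, fell by 0.35 (adjusted p = 0.0489). The calls of Nr1d1 and Per1 were lost in 10 and 12 of the 15 fits without a library, and that of Dbp in none. The hour of collection is not labelled, and its part in these values was not tested. Among 38 immediate early genes Per1 was the called gene, and the median was -0.15. Fos, the activity marker, had 9.83 ± 1.80 and 7.72 ± 1.45 CPM (-0.34, adjusted p = 0.246). Of 19 glucocorticoid-responsive genes 2 were called, both lower: Per1, and Plin4, a lipid droplet protein (-0.95, adjusted p = 0.0103). No gene of sterol synthesis (25 tested) or of the heat shock and unfolded protein response (30 tested) was called by edgeR. At an unadjusted p under 0.05 there were 1 higher and 1 lower of the former and 1 higher of the latter, and DESeq2 and limma voom called 0 in either list.

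Respiratory chain and ribosomal genes lay slightly lower, with few calls. Of 81 nuclear respiratory chain genes 2 were called, both lower, with a median of -0.08. Ndufb10, a complex I subunit, fell by 0.21 (SE 0.05, edgeR adjusted p = 0.0250), from 73.9 ± 5.04 to 64.1 ± 2.62 CPM, a call lost in 3 of the 15 fits without a library. Ndufb9, of the same complex, fell by 0.20 (adjusted p = 0.0488), a call lost in 10 of these fits. All 13 mitochondrially encoded genes had a negative log2 fold change, with a median of -0.19. None was called by edgeR, and 3 had an unadjusted p under 0.05, while DESeq2 called 1 and limma voom 0. Of 80 ribosomal protein genes 1, Rpl35, was called (1.25%, against 2.45% of all genes tested), and the list median was -0.10. The Rpl35 call (-0.24, adjusted p = 0.0410) was lost in 7 of the 15 fits and with upper-quartile scaling. Without ID insulin replicate 3, 14 nuclear respiratory chain genes, 3 mitochondrially encoded genes and 13 ribosomal protein genes were called, all lower. Calls rose among all genes in that fit too, to 751 of 15427, of which 360 were lower. With gene span as a covariate, described below, the median of the ribosomal list was 0.03.

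**Figure D2:**
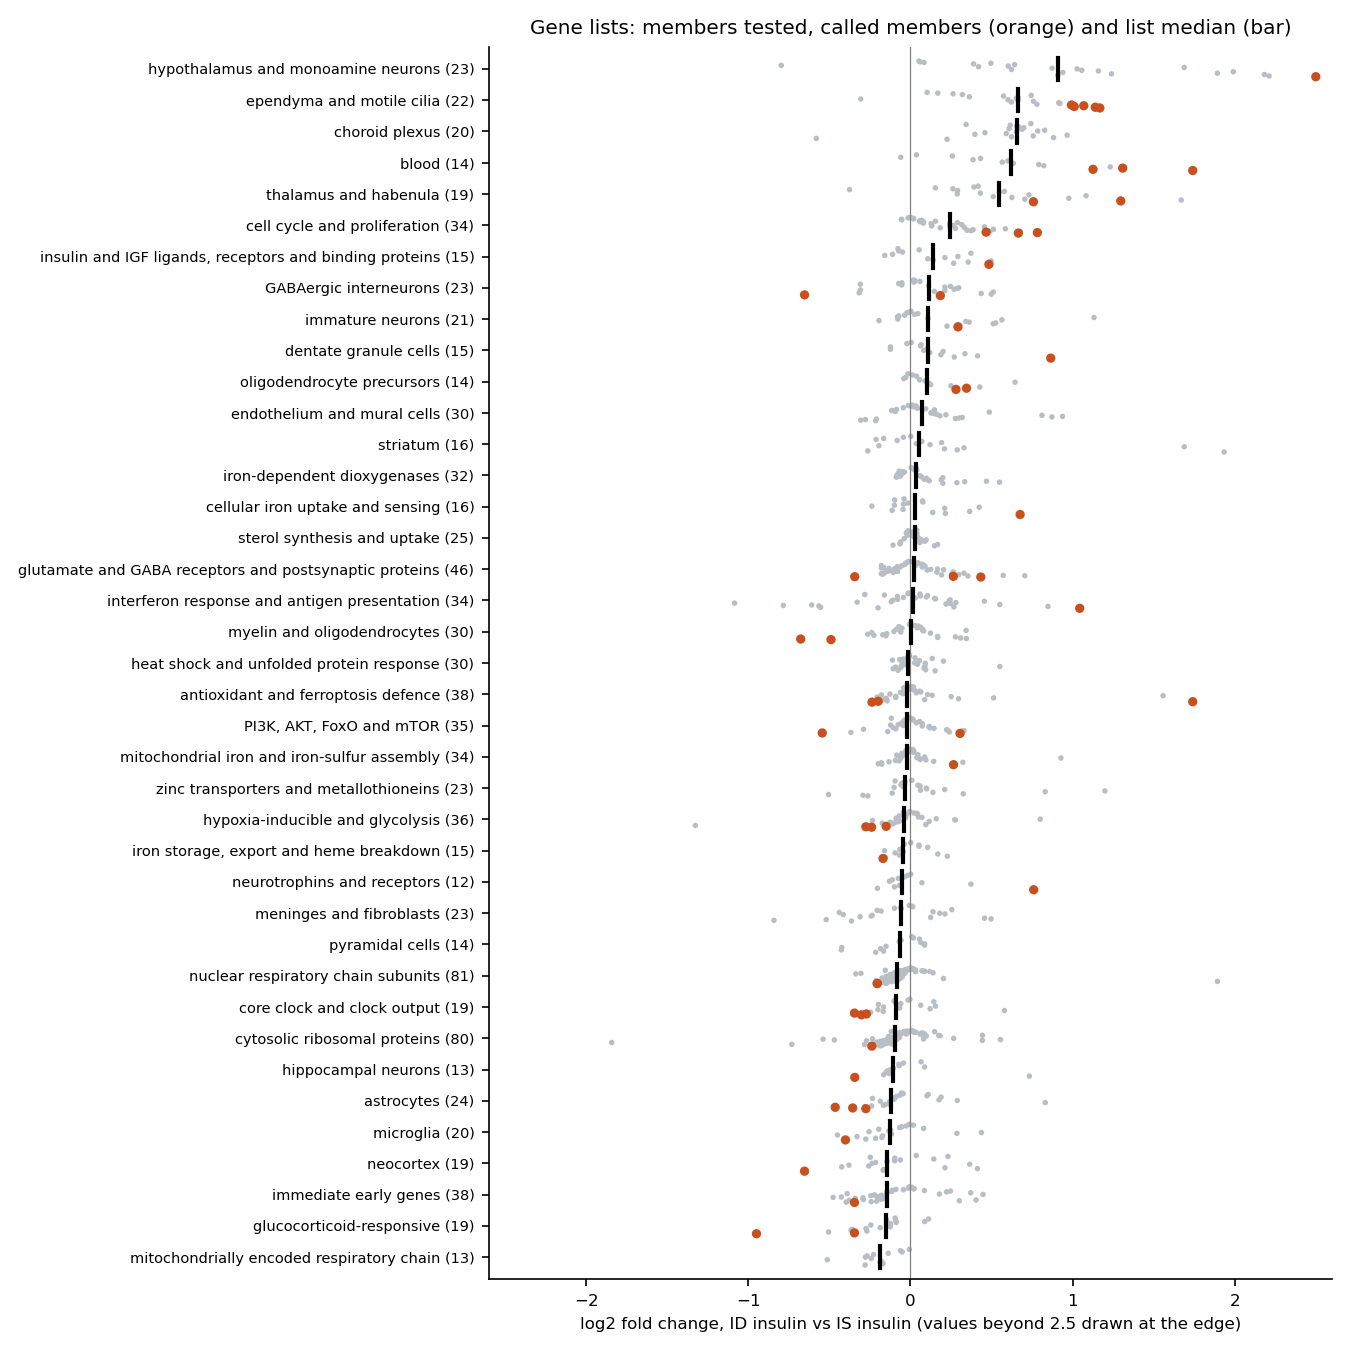
Log2 fold change of each tested gene in 39 lists, ID insulin against IS insulin, with called genes in orange and the list median as a bar. Hypothalamus, cilia, choroid plexus, blood and thalamus have the highest medians, 0.55 to 0.91, and the cell cycle list follows at 0.24.

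The hypothalamus, cilia, choroid plexus, blood and thalamus lists had the highest medians. Other tissue near the hippocampus did not: the median was 0.05 for striatum, -0.06 for meninges and fibroblasts and -0.15 for neocortex, with 1 call among the 3 lists, Lamp5 of the neocortex list. Of 22 tested genes of motile cilia 5 were called, all higher, with a median of 0.66. Dnai2, an axonemal dynein subunit, lay at 0.434, 0.884 and 1.30 CPM for IS insulin, against 1.22, 1.95 and 3.61 CPM in ID insulin. It rose by 1.17 (SE 0.24, edgeR adjusted p = 0.00790). Cfap65, a protein of the ciliary axoneme, rose by 1.14 (adjusted p = 0.00839). Cfap99, which has a similar name but is not on the list, rose by 1.11 (adjusted p = 0.00220). Dnah6 (1.02, adjusted p = 0.0125) and Dnah7 (1.06, adjusted p = 0.0301) are also off the list and rose. Dnah8, off the list as well, went the other way (-1.32, adjusted p = 0.0175), from 6.11 ± 2.43 to 2.44 ± 0.975 CPM. For Dnai2, Cfap65 and Cfap99 the highest library was ID insulin replicate 3. The summed level of the cilia list was 115 to 230 CPM in IS insulin (median 164) and 169 to 418 CPM in ID insulin (median 228). Without ID insulin replicates 3, 5 and 8, 1 of its genes was called and the median was 0.41.

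Choroid plexus, thalamus and hypothalamus genes varied with single libraries. The summed choroid plexus level was 191 to 5469 CPM in the IS insulin group and 508 to 7382 CPM in ID insulin. Of its 20 tested genes 19 had a positive log2 fold change and the median was 0.65. None was called by edgeR, DESeq2 or limma voom or had an unadjusted p under 0.05 in edgeR. With limma voom and its library weights the median was 1.78. Thalamus and habenula genes summed to 444 to 519 CPM in IS insulin, against 464 to 1332 CPM in ID insulin, with 2 of 19 called (median 0.55). Those were Patj, a scaffold of cell junctions (0.76, adjusted p = 0.0218), and Grid2ip, a synaptic scaffold (1.30, adjusted p = 0.0469). Without ID insulin replicate 5 neither was called and the median was 0.31, and neither was called without replicate 8 (median 0.58). The Grid2ip call was lost in 9 of the 15 fits without a library. Hypothalamus and monoamine genes summed to 159 to 280 CPM for IS insulin, against 149 to 958 CPM in ID insulin. Pmch, melanin-concentrating hormone, was their called gene (6.42, adjusted p = 0.0218) and rested on ID insulin replicate 8, without which it was not called (adjusted p = 0.298). The part of neighbouring tissue in the differences of other genes was not tested beyond the fit with the mean levels of the 4 lists named above as covariates, hypothalamus and cilia not among them, in which 57 of the 69 named called genes lost their call. The log2 fold changes of those 57 were at a median of 83.2% of their value without the covariates, from 19.5% for Rsad2 to 132% for Rpl35. Retsat, at -1.31 against -1.32, lost its call (adjusted p = 0.0730) with little change in size, whereas Slc4a1 and Alas2 of the blood list went to 0.47 and 0.37. Tfrc, Scara3, Cpq, Mki67, Slc3a2, Cryab, Mal, Alox15, Dcx and Aadat were among the 12 that kept it. Alox15, itself on the blood list, went from 1.74 to 0.93. Pmch also kept its call but went from 6.42 to 13.45, so its size was not stable in that fit.

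**Figure D3:**
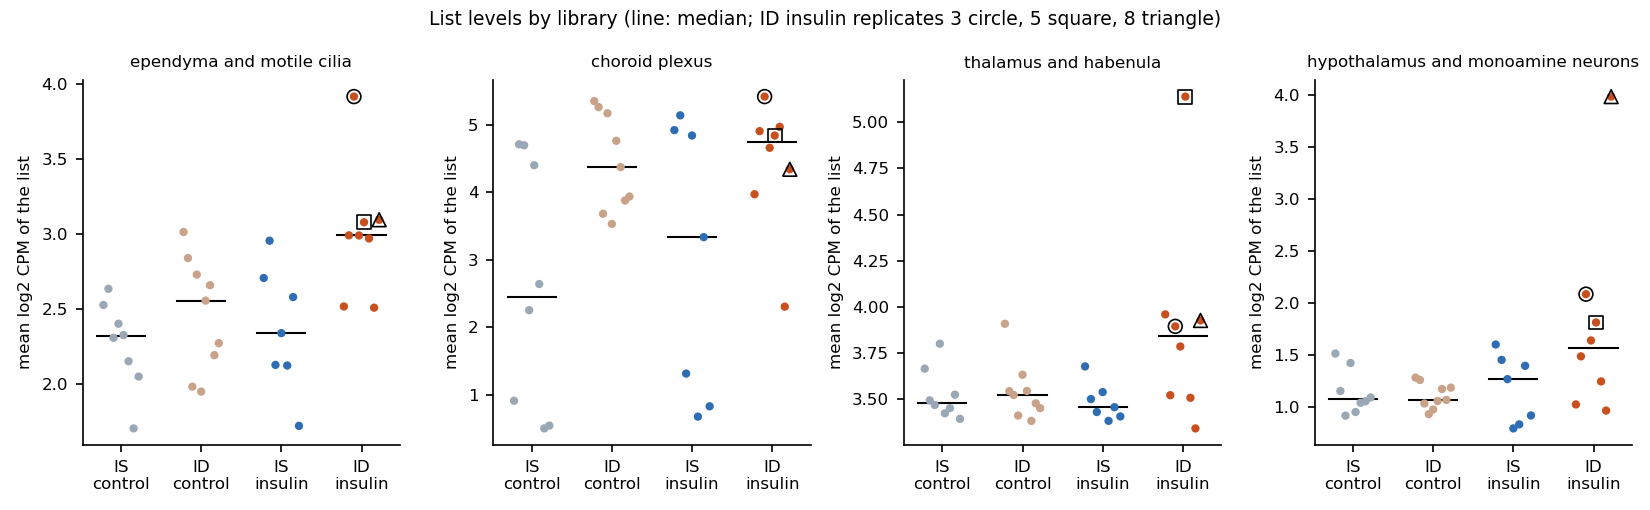
Mean log2 CPM of 4 marker lists in each library, by group, with the median as a line and ID insulin replicates 3, 5 and 8 outlined. Replicate 3 is highest for cilia (3.92), replicate 5 for thalamus (5.14) and replicate 8 for hypothalamus (3.99).

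Of 14 tested blood genes 3 were called, all higher, with a median of 0.62. Alox15, a lipoxygenase with an iron cofactor that is abundant in maturing red cells and stands on the blood and the antioxidant lists, lay at 52.2, 62.9 and 210.0 CPM in the IS insulin group and at 137, 271 and 415 CPM in ID insulin. Only IS insulin replicate 4 reached into the ID insulin range. Alox15 was 3.34-fold higher (1.74 ± 0.32, edgeR adjusted p = 0.00294). Alas2, the first enzyme of heme synthesis in red cells, rose by 1.13 (adjusted p = 0.0176), and Slc4a1, the red cell anion exchanger, rose by 1.31 (adjusted p = 0.0317). The Slc4a1 call was lost in 7 of the 15 fits without a library, and the Alas2 call in 0 of them but without ID insulin replicates 3 and 5. Both had their highest IS insulin value in replicate 4. The summed blood level was 1466 to 3475 CPM in IS insulin (median 1776) and 1319 to 5133 CPM in ID insulin (median 3150). Hbb, beta globin, had 632 ± 236 and 1117 ± 580 CPM and was not called (0.82, adjusted p = 0.0982). Rsad2, an antiviral gene and the called member of the 34 interferon genes, rose by 1.04 (adjusted p = 0.0406), a call lost in 8 of the 15 fits, and its highest IS insulin library was also replicate 4.

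Some of the largest decreases, Ca3 and Sncg here, came from genes whose libraries fell into separate levels. Ca3, a carbonic anhydrase, lay at 36.2 to 42.7 CPM in 4 IS insulin libraries and at 1.45, 1.86 and 11.7 CPM in the other 3. In ID insulin it lay at 2.28 to 9.60 CPM. Ca3 was lower by a log2 fold change of -2.49 (edgeR adjusted p = 0.0489), a call lost in 11 of the 15 fits without a library. Sncg, a synuclein, was at 24.2 to 34.3 CPM in 5 IS insulin libraries and at 6.25 and 8.03 CPM in the other 2, against 5.52 to 15.4 CPM in ID insulin (-1.61, adjusted p = 0.0158). Retsat and Aadat are named for the size of their decrease alone. Retsat, retinol saturase, lay at 44.5, 94.9 and 113 CPM against 23.3, 35.5 and 48.7 CPM (-1.32, adjusted p = 0.00249). Its ranges overlapped through the lowest IS insulin and the highest ID insulin library. Aadat, an enzyme of the kynurenine pathway, had 3.12 ± 1.06 and 1.44 ± 0.630 CPM (-1.13, adjusted p = 0.00425). For Aadat, 7 of 8 ID insulin libraries lay below all of IS insulin.

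Without insulin, the diet difference was called for 45 genes (0.291%), 27 higher and 18 lower in ID control. Of these, 7 were also called with insulin, all in the same direction, which is 1.85% of the 378 and 15.6% of the 45. Tfrc (0.68 with and 0.53 without insulin) and Scara3 (-0.68 and -0.49) were the 2 genes whose groups did not overlap in either comparison in the same direction. Vav2, a guanine nucleotide exchange factor, was at 15.2 to 31.5 CPM in IS insulin, against 15.6 to 19.2 CPM in ID insulin (-0.52 with and -0.78 without insulin). The other 4, named after their values were seen, were Cnot8, Vps4b, Tmem45b and LOC108351520. The interaction of diet and insulin was called for 0 of the 7 by edgeR, and 0 of them had an unadjusted p under 0.05. The adjusted p ran from 0.398 for Scara3 to 0.923 for Vps4b. Of the 378 genes called with insulin, 196 (51.9%) had the same sign without insulin, against 47.4% of all genes tested. Without insulin, 47 of the 378 had the same sign at an unadjusted p under 0.05 (edgeR) and 34 the opposite sign. Of all genes tested, 11.9% had such a p without insulin. Across the 15439 genes, which are not independent replicates, Pearson's r between the 2 differences was 0.20 and Spearman's rank correlation 0.0077. Among the 378 genes, which were selected on 1 of the 2 differences, Pearson's r was 0.57. Their median log2 fold change without insulin, counted as positive in the direction seen with insulin, was only 0.0066.

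The interaction was called for 145 genes (0.939%), 79 with a more positive and 66 with a more negative diet difference under insulin. The count ran from 40 without IS insulin replicate 2 to 594 without ID insulin replicate 3, and it was 20 with the span index described below as a covariate and 20 with tissue levels as covariates. Of the 145, 70 were also called between ID insulin and IS insulin, so most of the 378 genes called there had no called interaction. Among the named genes, most of them picked by their results, 23 were called in the interaction, 15 of them in each of the 15 fits without a library. Mki67, Gpr17, Thrsp and Slc39a12 were also called in all 14 other settings, and no sign changed for any of the 23. The mean of Mki67 was 8.43 ± 0.887 CPM in IS control and 7.30 ± 1.23 CPM in ID control (log2 fold change -0.21, adjusted p = 0.398), and the interaction was 0.88 (edgeR adjusted p = 0.00433). Gpr17 had 99.7 ± 3.82 CPM in IS control and 87.6 ± 7.45 CPM in ID control (-0.19, edgeR adjusted p = 0.0946). Its interaction was 0.47 (adjusted p = 0.00244). Mal had 514 ± 76.9 and 536 ± 73.7 CPM without insulin and an interaction of -0.74 (adjusted p = 0.0242). Dcx (0.44), Thrsp (-0.92), Dbp (-0.49), Cenpf (0.84) and Cpq (-0.44) were also called in the interaction. Prss12, the synaptic protease neurotrypsin, lay at 4.04 to 12.9 CPM for IS insulin, against 4.33 to 6.69 CPM in ID insulin, where it fell by 0.91 (adjusted p = 0.0191). Without insulin it had 10.6 ± 3.29 and 16.2 ± 3.17 CPM, and the interaction was -1.53 (adjusted p = 0.00520). Slc39a12, a zinc transporter of astrocytes, spanned 1.74 to 41.3 CPM in the IS insulin group and 19.4 to 43.2 CPM in ID insulin and was not called (0.83, adjusted p = 0.212). Without insulin it lay at 2.97 to 38.4 CPM in IS control and at 2.11 to 3.95 CPM in ID control, and the interaction was 3.64 (adjusted p = 0.00433).

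The position of the control groups gives a further description. For 261 of the 378 called genes (69.0%) both control means lay between the mean of IS insulin and that of ID insulin, as they did for 19.8% of all genes tested. The called genes were chosen for a wide distance between the insulin groups, so no test was made of this share. Since the ages of the control pups are not settled by the labels, age and insulin cannot be told apart in the interaction.

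**Figure D4:**
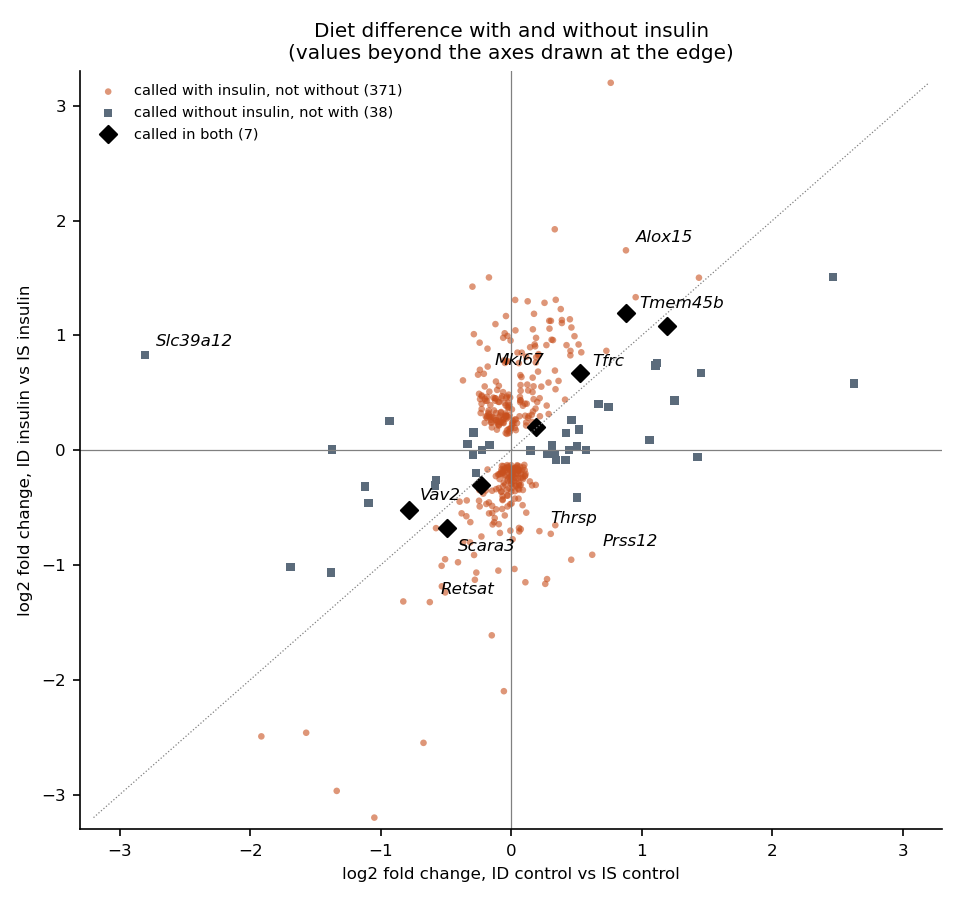
Log2 fold change of each gene called in either comparison, ID control against IS control on the horizontal axis and ID insulin against IS insulin on the vertical axis, with the line of equal values dotted. Only 7 genes, drawn as diamonds, were called in both, and 371 were called with insulin and not without. Of the 378 genes called with insulin, the interaction of diet and insulin was called for 70.

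Called genes differed by genomic span, a property looked at after the data were seen and taken from RefSeq (GRCr8) by symbol for 87.3% of the genes tested. The median span was 75.5 kb for genes called higher, 15.8 kb for genes called lower and 26.1 kb for all. When genes were split by span into 5 equal bins, 87 genes were called higher and 13 lower in the longest bin, and 13 higher and 41 lower in the shortest. Median log2 fold changes from the shortest to the longest bin were -0.04, -0.02, -0.01, 0.01 and 0.06. A span index, the mean log2 CPM of the longest bin minus that of the shortest, was 0.988 ± 0.0735 in IS insulin and 1.09 ± 0.119 in ID insulin. The difference of 0.106 gave p = 0.0654 in a two-sided exact permutation test over the libraries (6435 regroupings). Between the control groups the difference was -0.0441 (exact permutation p = 0.303). RNA length or integrity was not measured in these files, and its part in the calls was not tested. With the span index as a covariate 311 genes were called, 168 of them shared with the 378, and 18 of the 69 named called genes lost their call.

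**Figure D5:**
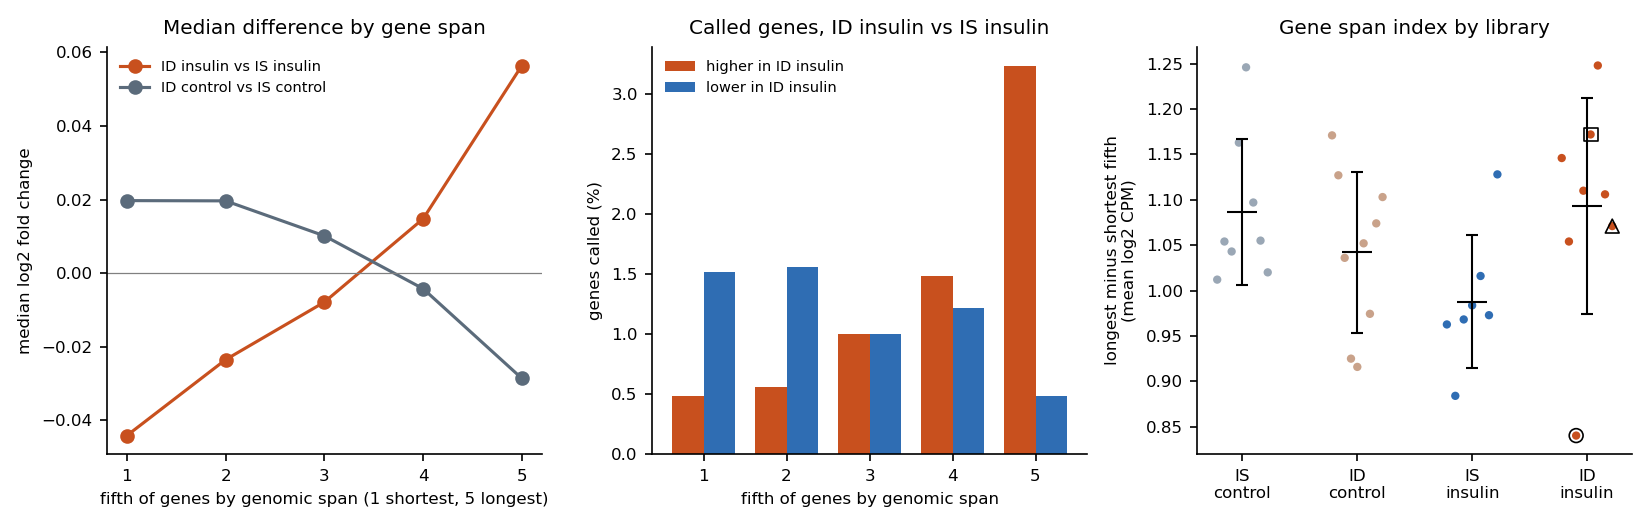
Left, median log2 fold change by bin of genomic span for the diet difference with and without insulin. Middle, percent of genes called higher or lower in ID insulin by bin. Right, span index of each library with mean and SD by group, with ID insulin replicates 3, 5 and 8 outlined. The medians run from -0.04 to 0.06 with insulin and from 0.02 to -0.03 without, and the lowest index is that of replicate 3 (0.840).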

How the data were processed

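RNA was sequenced from 1 hippocampus per rat pup. The authors deposited a table of raw read counts per gene and library. Per the submitters' processing notes the tools were Trimmomatic (0.40), FastQC, HISAT2 (2.1.0), featureCounts and edgeR, and the builds Rnor_6.0 and mm10 are listed without a role. Strand and multimapping settings are not given in the sources used here, so overlapping, antisense and near-identical genes, the alpha globin copies and Olr1462 among them, are uncertain. Of 32883 genes listed, 9663 were without counts, and 25 names had become dates. Groups came from the labels, and replicates were numbered in accession order.

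Counts were analysed in R (4.3.3) with edgeR (4.0.16): TMM, filterByExpr by group (15439 genes kept), and the quasi-likelihood F-test, two-sided, fitted to all 32 libraries with 1 coefficient for each group (28 residual degrees of freedom). Benjamini-Hochberg adjustment ran over all genes tested, and calls needed an adjusted p under 0.05. CPM use TMM-scaled totals. The self-test on simulated counts recovered the changes put in. No 2 libraries of a group were alike within sampling noise (lowest chi-square per gene 8.21 in IS insulin and 9.77 in ID insulin).

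The comparison, the 40 gene lists and the naming rule were chosen with earlier results of these data known. Named were called genes whose mean log2 CPM reached 1: the 12 largest increases, the 12 largest decreases, the 8 lowest adjusted p and up to 4 per list, with 16 single genes whatever their result and the 6 lowest adjusted p of the interaction, 79 in all. Alternatives were DESeq2 (1.42.0), DESeq2 size factors, upper-quartile scaling, no count filter, 1 CPM in 7 libraries, the 15 libraries alone, limma voom (3.58.1) with quality weights, legacy quasi-likelihood, the second title number as a block, Y-linked or tissue-list covariates and libraries left out. Chosen after seeing the data were the span covariate and removal of ID insulin replicates 5 and 8. Promoters and gene spans were matched to RefSeq (GRCr8) by symbol.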

Additional observations from a re-analysis of the deposited data

Results flagged for a closer look

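Among 158 groups of values, 19 held a library far from the rest. The cut-off gives about 1 in 20 by chance for independent values. Most of these genes were picked by their results and several share the same outlying library, so 19 cannot be judged against that rate. ID insulin replicate 3 was the highest library for 8 genes: Cfap99 (10.4 CPM), Aadat (2.93), Dnai2 (3.61), Cfap65 (18.8), Dnah6 (24.0), Dnah5 (8.42), Dnah7 (7.22) and Mbp (13590). Of these, Dnai2, Cfap65 and Dnah5 are on the list of motile cilia. IS insulin replicate 4 stood highest among IS insulin for Alox15 (210.0 CPM), Alas2 (41.1), Slc4a1 (31.7) and Rsad2 (15.7), the first 3 on the blood list. IS insulin replicate 1 was highest for Tfrc (165 CPM, the others 117 to 126.5). IS insulin replicate 6 was lowest for Scg3 (306 CPM) and Tnnc2 (1.01 CPM). In ID insulin, replicate 8 was highest for Pmch (117.5 CPM), replicate 5 for Grid2ip (11.6), replicate 7 for Dnah8 (4.56) and replicate 1 for Lamp5 (76.9).

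The diet difference with insulin departed from that without insulin in 23 of the named genes, by edgeR's test of the interaction. Of all genes tested 0.939% were called in it. Most named genes were picked by their results in these data, so 23 cannot be judged against that share. Of the 23 calls, 17 were lost with the replicate block, 16 with tissue-list covariates and 15 with the span covariate. It was more positive with insulin for Mki67 (0.88, log2), Cenpf (0.84), Ptpro (0.55), Tnr (0.52), Gpr17 (0.47), Dcx (0.44), Grm5 (0.42) and Slc39a12 (3.64). It was more negative for Prss12 (-1.53), Slc28a2 (-1.41), Lamp5 (-0.99), Thrsp (-0.92), Moxd1 (-0.79), Mal (-0.74), Dbp (-0.49), Cryab (-0.46), Cpq (-0.44), Nr1d1 (-0.41), Scg3 (-0.34), Mxi1 (-0.31), Ndufb10 (-0.31), Ldhb (-0.24) and Slc3a2 (-0.23).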

How the results depend on the processing

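No named gene that was called changed sign under any setting run. Of the 69 named called genes, 36 were called in each of the 15 fits that left out a library and 9 also in all 15 other settings (Tfrc, Scara3, Cpq, Mki67, Slc3a2, Cryab, Mal, Alox15 and Aadat). The counts were less stable. Between ID insulin and IS insulin (378 genes), DESeq2 called 723, the 15 libraries alone 146, tissue-list covariates 37, removal of ID insulin replicates 3, 5 and 8 221, and removal of replicates 5 and 8 99. Leaving out 1 library gave 169 to 751. For the interaction (145 genes), DESeq2 called 423, no count filter 94, limma voom 491, tissue-list covariates 20, the span covariate 20, removal of replicates 3 and 5 433, of 3, 5 and 8 390, and of 5 and 8 50. Leaving out 1 library gave 40 to 594. For ID control against IS control (45 genes), DESeq2 called 114, limma voom 242 and tissue-list covariates 16. With the second title number as a replicate block, 177 genes were called with insulin and 9 in the interaction. Libraries that share that number did not deviate together in all of 6 pairs (correlations -0.00935 to 0.234, 2 over 0.1, 0 best matches), so the number was not taken as a pairing. Causes of these changes were not tested. At 20329153 to 28062630 counts per library, low genes such as Pmch rest on few reads in most libraries.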
